A study of Mus musculus with 3 samples.

Results

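The 10 genes described here, *Sst*, *Npy*, *Penk*, *Tac1*, *Cck*, *Vip*, *Pdyn*, *Nts*, *Gal* and *Cort*, encode precursors of neuropeptides. They were taken by name, each through the array probe that carries a RefSeq transcript of the gene, out of 20141 genes that RefSeq names on the arrays, and each of the 10 had 1 probe. The transcripts those probes carry are NM_009215 (*Sst*), NM_023456 (*Npy*), NM_001002927 (*Penk*), NM_009311 (*Tac1*), NM_031161 (*Cck*), NM_011702 (*Vip*), NM_018863 (*Pdyn*), NM_024435 (*Nts*), NM_010253 (*Gal*) and NM_007745 (*Cort*). RNA was measured on 3 one-color arrays, 1 for each of 3 cell populations purified by FACS. Lhx6-GFP+ and Lhx6-GFP- cells of the ES culture (ES-GFP+ and ES-GFP- from here on) came from EB aggregates of J14 mouse ES cells at day 12 of differentiation, after 100 ng/ml Dkk-1, a Wnt inhibitor, and 6 nM SAG, an activator of the Sonic hedgehog pathway. J14 is a male line of 129S4/SvJae background that carries an Lhx6-GFP BAC transgene, and according to the labels also the viral reporter 692-mCherry, so both ES populations share these alleles and differ in the GFP gate. MGE-GFP+ cells were sorted from the medial ganglionic eminence (MGE) of E12.5 embryos that carry an Lhx6-GFP BAC in CD-1 background and are labelled female. The comparison with embryonic cells therefore also changes strain, labelled sex, the transgenic source and culture, and the GFP gate picks cells by a BAC reporter of *Lhx6*, not by the protein itself. No sample has a replicate, so each comparison is 1 array against 1 array, no test was possible, and precision is limited by the small number of arrays.

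A neuropeptide is made as a longer precursor that prohormone convertases cut within the secretory pathway, stored in dense-core vesicles and released to act on G protein-coupled receptors. Cortical interneurons are classed in part by such peptides. Somatostatin and neuropeptide Y are found in interneurons born in the MGE, and Vip and Cck in many of those born in the caudal ganglionic eminence (CGE). In the striatum, which arises largely from the lateral ganglionic eminence (LGE), enkephalin from *Penk* marks one class of projection neuron, and substance P from *Tac1* together with dynorphin from *Pdyn* marks the other.

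Of the genes that stood higher in ES-GFP+ than in ES-GFP- cells, *Sst*, *Npy* and *Tac1* are shown first by their promoters, because they are the members called higher in that comparison by the limits given further on. The sequences are the 250 bases before the RefSeq transcription start in GRCm38.p6, written 5′ to 3′ on the strand of the gene. Capitals mark matches, on either strand, to the letters TGACG (the short core of the cAMP response element, which overlaps the full element TGACGTCA) and TAATTA (a core that many homeodomain factors recognize).
Sst promoter, chr16:23890845-23891094, minus strand: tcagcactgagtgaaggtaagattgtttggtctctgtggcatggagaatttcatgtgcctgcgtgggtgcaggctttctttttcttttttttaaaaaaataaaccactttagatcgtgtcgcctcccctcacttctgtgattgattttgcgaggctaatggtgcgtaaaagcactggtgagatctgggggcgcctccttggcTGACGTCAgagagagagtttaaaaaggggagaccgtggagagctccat
Npy promoter, chr6:49822460-49822709, plus strand: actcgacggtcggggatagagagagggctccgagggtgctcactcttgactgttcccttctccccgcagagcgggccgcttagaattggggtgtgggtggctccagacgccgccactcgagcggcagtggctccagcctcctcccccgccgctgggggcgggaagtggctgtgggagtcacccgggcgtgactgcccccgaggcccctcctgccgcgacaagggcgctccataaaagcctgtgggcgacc
Tac1 promoter, chr6:7554811-7555060, plus strand: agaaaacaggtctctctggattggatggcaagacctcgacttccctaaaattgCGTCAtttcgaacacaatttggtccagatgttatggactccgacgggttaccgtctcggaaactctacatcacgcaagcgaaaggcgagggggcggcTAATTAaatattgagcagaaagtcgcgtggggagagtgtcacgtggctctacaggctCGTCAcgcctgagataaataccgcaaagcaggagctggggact
The *Sst* window held the full TGACGTCA, from 48 to 41 bases before the start. That element occurs in 1.55% of 32851 promoter windows of this length, and among 9 members with a window it was found in *Sst* alone. The short core TGACG was in the windows of 6 of the 9 (*Sst*, *Tac1*, *Cck*, *Vip*, *Nts* and *Cort*), against 17.8% of all windows. TAATTA was found in *Tac1*, from 100 to 95 bases before the start, and in *Cort*, against 4.84% of all windows, and the TATA box letters TATAAA were found in *Vip*, against 12.4%. The *Npy* window matched none of the 4 sets of letters. A match is a description of the letters and not of a bound site.

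Intensities below are those the scanner software gave after background subtraction, before any scaling between arrays. Differences are on the log2 scale after each array was centred on its own 75th percentile, which was 843 for ES-GFP-, 747 for ES-GFP+ and 576 for MGE-GFP+ cells. Over genes with repeat spots, 2 SDs of a difference between arrays came to 1.32-fold in each of the 3 comparisons, which covers the error within an array and not the variation between cultures, embryos or sorts. As a measure of signal that mouse RNA does not give, each array carries 106 probes for adenovirus E1A and ERCC sequences. Their 95th percentile was an intensity of 208 on the ES-GFP-, 377 on the ES-GFP+ and 152 on the MGE-GFP+ array, and their median was 11.5, 69.9 and 7.73, so dim signals were brighter on the ES-GFP+ array. A gene is called here when it differed by at least 2-fold and exceeded that 95th percentile on at least 1 of the 2 arrays. A gene with several probes counts as above the limit when at least 1 of its probes is, and the intensity and difference given for it are means over its probes on the log2 scale. Of the 10 members, 5 exceeded it on all 3 arrays, 8 on at least 1, and *Vip* and *Pdyn* on none.

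Between ES-GFP+ and ES-GFP- cells, 7 members could be called, and 3 of them (*Sst*, *Npy* and *Tac1*) were higher and 1 (*Penk*) lower, where 6.88% of the 11766 genes above the control probes were called higher and 8.78% lower. Between MGE-GFP+ and ES-GFP+ cells, *Tac1* was higher and *Npy*, *Penk* and *Cck* were lower out of 8, where 8.37% of 11033 genes were called higher and 10.5% lower. Between MGE-GFP+ and ES-GFP- cells, *Sst*, *Tac1* and *Nts* were higher and *Penk* and *Cck* lower out of 8, where 11.6% of 12015 genes were called higher and 15.5% lower. The comparisons share arrays, so their counts do not add to each other. The median log2 difference over the members above the control probes was 0.49, -0.34 and 0.63 in these comparisons, beside 0.03, 0.08 and 0.05 over all such genes. The members thus had no common direction, and the values of single genes follow.

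**Figure D1:**
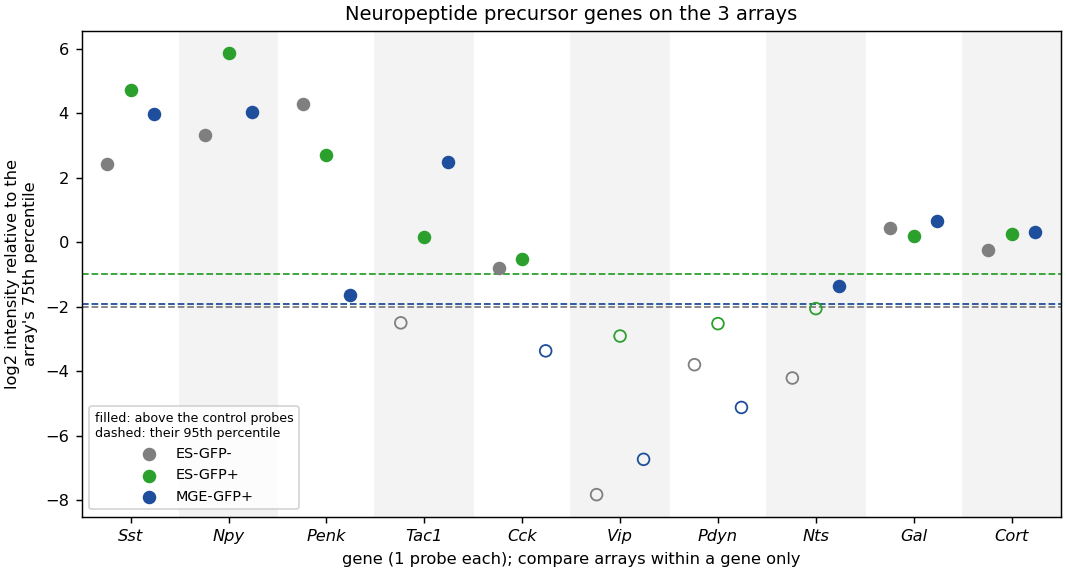
Level of each of the 10 genes on the 3 arrays, as log2 intensity relative to the array's 75th percentile. Filled points exceed the 95th percentile of the array's control probes (dashed line of the same color) and open points do not. Colors can be compared within a gene, but not heights between genes, which are read by different probes. *Sst* and *Npy* are highest in ES-GFP+ cells, *Penk* descends from ES-GFP- to MGE-GFP+ cells and *Tac1* ascends.

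How arrays are scaled changes both these background shares and some of the members' calls. With the 50th percentile in place of the 75th, the median of genes above the control probes moved to -0.42, 0.83 and 0.36 in the 3 comparisons, and the shares called higher and lower became 2.82% and 18.8%, 40.0% and 4.23%, and 20.7% and 11.7%. After quantile normalization they were 6.26% and 12.2%, 10.95% and 8.64%, and 10.5% and 13.6%. The members called higher and lower became 3 and 1, 3 and 3, and 4 and 2 with the 50th percentile. With quantile normalization they were 3 and 1, 2 and 4, and 3 and 2. For the smaller differences of members, the value relative to the median gene above the control probes is given as well.

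*Sst*, the precursor of somatostatin, was printed 10 times on each array, and its repeat spots give the closest view of the error within an array. The 10 spots ranged from 4039 to 4989 in ES-GFP- cells, from 17862 to 21806 in ES-GFP+ cells and from 8644 to 9710 in MGE-GFP+ cells, and the means, taken on the log2 scale, were 4519, 19636 and 9065. The ranges of the arrays did not overlap, and the SD over spots was 0.09, 0.11 and 0.05 on the log2 scale. *Sst* was 4.91-fold higher in ES-GFP+ than in ES-GFP- cells, a log2 difference of 2.29 ± 0.09 (SD over 10 spots), and 2.94-fold higher in MGE-GFP+ than in ES-GFP- cells, a log2 difference of 1.55 ± 0.10. MGE-GFP+ cells stood 1.67-fold below ES-GFP+ cells, a log2 difference of -0.74 ± 0.10, which is beyond 2 SDs of repeat spots but under the 2-fold limit. Relative to the median gene that last difference was -0.83, and it was 0.01 with the 50th percentile and -1.01 after quantile normalization, so the order of the GFP+ populations depends on the scaling. In sorted populations such as these, fewer cells with a transcript and less of it in each cell cannot be told apart.

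**Figure D2:**
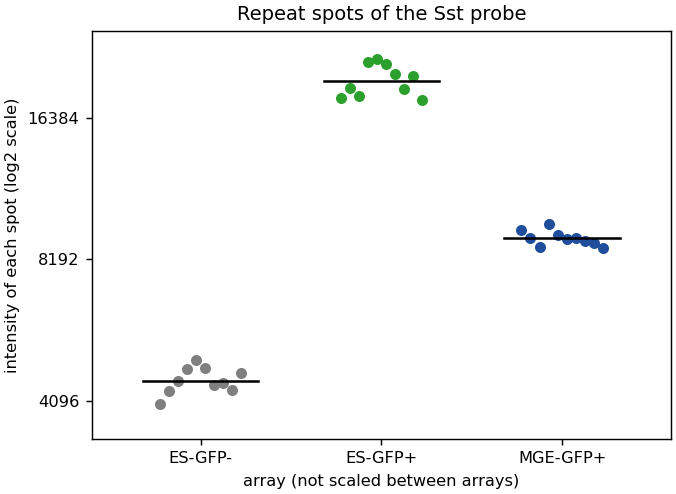
Intensity of each of the 10 repeat spots of the *Sst* probe on the 3 arrays, on a log2 axis and before scaling between arrays. The black bar is the mean of the log2 values. The spots of the arrays do not overlap, with 4039 to 4989 in ES-GFP-, 17862 to 21806 in ES-GFP+ and 8644 to 9710 in MGE-GFP+ cells.

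*Cort* encodes cortistatin, a close relative of somatostatin that binds the same receptors. Its intensity was 716 in ES-GFP-, 891 in ES-GFP+ and 718 in MGE-GFP+ cells. The largest of its log2 differences was 0.55, between MGE-GFP+ and ES-GFP- cells, and the GFP+ populations differed by 0.06, less than the repeat-spot error. Relative to the median gene these values were 0.50 and -0.02, and with the 50th percentile the GFP+ populations differed by 0.81. *Cort* thus did not follow *Sst*: the log2 difference of *Sst* between the ES populations exceeded that of *Cort* by 1.80, where 2 errors of the software's own estimate came to 0.58.

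*Npy*, the precursor of neuropeptide Y, gave an intensity of 8474 in ES-GFP-, 43541 in ES-GFP+ and 9410 in MGE-GFP+ cells. It was 5.80-fold higher in ES-GFP+ than in ES-GFP- cells (log2 difference 2.54, ± 0.20 by the error the software assigns) while MGE-GFP+ cells stood 3.57-fold below ES-GFP+ cells (-1.84 ± 0.20). MGE-GFP+ cells were within 1.63-fold of ES-GFP- cells, a log2 difference of 0.70 ± 0.20, or 0.65 relative to the median gene, which just passed 2-fold with the 50th percentile (1.01). Between the ES populations the log2 differences of *Npy* and *Sst* lay within 0.24 of each other, under 2 errors of that value (0.58). From ES-GFP+ to MGE-GFP+ cells the log2 difference of *Npy* minus that of *Sst* was -1.10, beyond 2 errors, so *Npy* stood farther above the embryonic cells than *Sst* did.

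*Penk* and *Tac1* ran in opposite directions over the arrays. *Penk*, the precursor of the opioid enkephalins, gave an intensity of 16601 in ES-GFP-, 4909 in ES-GFP+ and 185 in MGE-GFP+ cells, where it was 1.22 times the control probes' 95th percentile. It was 3.00-fold lower in ES-GFP+ than in ES-GFP- cells (log2 difference -1.58 ± 0.20), 20.4-fold lower in MGE-GFP+ than in ES-GFP+ cells (-4.35 ± 0.21) and, at the extremes, 61.2-fold lower in MGE-GFP+ than in ES-GFP- cells (-5.94 ± 0.21). This was the largest difference of any member in these arrays.

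*Tac1*, the precursor of substance P and neurokinin A, had an intensity of 149 in ES-GFP- cells, within the range of the control probes, 841 in ES-GFP+ cells and 3276 in MGE-GFP+ cells. It was 6.36-fold higher in ES-GFP+ than in ES-GFP- cells (log2 difference 2.67 ± 0.21), 5.05-fold higher in MGE-GFP+ than in ES-GFP+ cells (2.34 ± 0.20) and 32.1-fold higher in MGE-GFP+ than in ES-GFP- cells (5.004 ± 0.21). With the dim value raised to the control probes' 95th percentile, the first difference was 2.19. *Tac1* was the one member called higher in all 3 comparisons and *Penk* the one called lower in all 3.

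Markers of the striatal lineage were compared with this pair. Of 11 striatal (LGE) markers, 2 were called higher and 3 lower in ES-GFP+ than in ES-GFP- cells, 0 higher and 3 lower in MGE-GFP+ than in ES-GFP+ cells, and 1 higher and 5 lower in MGE-GFP+ than in ES-GFP- cells. Their summed level, in multiples of the array's 75th percentile, was 20.6 in ES-GFP-, 10.0 in ES-GFP+ and 4.65 in MGE-GFP+ cells, in the same order as *Penk* and opposite to *Tac1*. *Meis2*, a homeodomain factor of the LGE, went from an intensity of 9800 through 3163 to 430, and *Zfp503* from 2675 through 864 to 61.0, the last within the range of the control probes. *Foxp2* went the other way, from 183 through 592 to 783. The other striatal marker called higher between the ES populations, *Ikzf1*, had 1 of its 2 probes within the range of the control probes on all arrays, and with values in that range raised to the 95th percentile its difference of 1.21 became 0.47 and the call ended. Its lower call between the GFP+ populations ended as well (-0.70), as did that of *Ppp1r1b* between MGE-GFP+ and ES-GFP- cells (-0.34). With the 50th percentile, *Foxp2* (1.53) and *Rarb* (1.23) were called higher in MGE-GFP+ than in ES-GFP+ cells, while *Meis2* and *Zfp503* stayed lower. The lower call of *Ikzf1* (-0.58) ended. From ES-GFP- to MGE-GFP+ cells *Rarb* (1.24) was then higher, and the lower calls of *Foxp1* (-0.93) and *Ppp1r1b* (-0.96) ended. Between the ES populations *Foxp1* (-1.18) and *Ppp1r1b* (-1.25) were then lower and *Ikzf1* (0.77) was not called. The dopamine receptor *Drd1*, a marker of mature substance P neurons, was within the range of the control probes on all 3 arrays. The other dopamine receptor on the list, *Drd2*, exceeded them on all 3, with intensities of 1096, 1076 and 457. It was not called in any comparison, with a log2 difference of 0.15 between the ES populations, where *Penk* was lower. The part of striatal-like cells in the *Penk* and *Tac1* values was not tested.

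*Cck*, the precursor of cholecystokinin, gave an intensity of 485 in ES-GFP-, 520 in ES-GFP+ and 55.9 in MGE-GFP+ cells, the last within the range of the control probes. The ES populations differed by a log2 value of 0.27 ± 0.20, less than 2 SDs of repeat spots, or 0.25 relative to the median gene, and the sign turned to -0.17 with the 50th percentile. In MGE-GFP+ cells *Cck* was 7.17-fold lower than in ES-GFP+ and 5.93-fold lower than in ES-GFP- cells. With dim values raised to the control probes' 95th percentile these log2 differences shrank from -2.84 to -1.40 and from -2.57 to -1.13, and both stayed beyond 2-fold.

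*Vip*, the precursor of vasoactive intestinal peptide, was well above the local background only in ES-GFP+ cells, with intensities of 3.72 in ES-GFP-, 99.6 in ES-GFP+ and 5.42 in MGE-GFP+ cells. A dim probe has only a bound, so *Vip* was at least 6.33-fold higher in ES-GFP+ than in ES-GFP- cells and at least 6.36-fold higher than in MGE-GFP+ cells, counted from the lowest signal that the software detects on the dim array. All 3 values lay within the range of the control probes, whose median was also highest on the ES-GFP+ array, and in the authors' log2 values the difference was 1.03 between the ES populations and -0.55 from ES-GFP+ to MGE-GFP+ cells. *Vip* was therefore not called. Of 6 CGE markers, 1 (*Adarb2*) was called higher and 1 (*Htr3a*) lower in ES-GFP+ than in ES-GFP- cells, 1 (*Adarb2*) higher and 1 (*Nr2f2*) lower in MGE-GFP+ than in ES-GFP+ cells, and 1 higher and 4 lower in MGE-GFP+ than in ES-GFP- cells, where their median log2 difference was -1.43. Their summed level was 12.6 in ES-GFP-, 12.5 in ES-GFP+ and 9.87 in MGE-GFP+ cells. With dim values raised to the control limit, *Htr3a* was not called between the ES populations. From ES-GFP- to MGE-GFP+ cells the lower calls of *Htr3a* (log2 difference -0.02) and *Sp8* (-0.99) ended. With the 50th percentile, *Nr2f2* was not called from ES-GFP+ (-0.73) or ES-GFP- (-0.89) to MGE-GFP+ cells. *Prox1* (-1.35) and *Sp8* (-1.19) were then lower between the ES populations, and *Npas3* (1.14) higher between the GFP+ populations.

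*Pdyn*, the precursor of dynorphins, also stayed within the range of the control probes, with intensities of 60.8, 130 and 16.5 in ES-GFP-, ES-GFP+ and MGE-GFP+ cells. Its measured log2 differences of 1.27, -2.60 and -1.33 had the same order of arrays as the median of the control probes, and in the authors' log2 values they were 0.15, -0.41 and -0.26. How far the dim signal of each array enters them was not tested. *Nts*, the precursor of neurotensin, gave 45.6 in ES-GFP-, 180 in ES-GFP+ and 225 in MGE-GFP+ cells, and exceeded the control probes only in MGE-GFP+ cells. It was 7.22-fold higher there than in ES-GFP- cells (log2 difference 2.85 ± 0.24), but 0.66 on that scale when the dim value was raised to the control probes' 95th percentile, which ends the call. Between the GFP+ populations its log2 difference was 0.70 ± 0.21, and it passed 2-fold in the authors' log2 values (1.11), after quantile normalization (1.32) and with the 50th percentile (1.45).

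*Gal*, the precursor of galanin, was above the control probes on all arrays and differed by less than 2-fold in each comparison. Its intensity was 1149 in ES-GFP-, 852 in ES-GFP+ and 916 in MGE-GFP+ cells. Its log2 differences were -0.26 between the ES populations and 0.48 and 0.22 from these to MGE-GFP+ cells, or -0.28, 0.40 and 0.17 relative to the median gene. With the 50th percentile the difference between the GFP+ populations was 1.23, past 2-fold. Hypothalamic markers were read beside it, because galanin and several other precursors are abundant in that region. Of 9 such markers, 1 (*Rax*) was called higher and 3 lower in ES-GFP+ than in ES-GFP- cells. In MGE-GFP+ cells, 3 were lower than in ES-GFP+ and 4 lower than in ES-GFP- cells, and 0 higher. With dim values raised to the control limit, the 3 lower calls between the ES populations ended. *Fezf1* was then not called from ES-GFP- to MGE-GFP+ cells (-0.48) either. Summed levels were 6.71, 5.71 and 3.68 in ES-GFP-, ES-GFP+ and MGE-GFP+ cells. *Nr5a1*, the 1 marker above the control probes in MGE-GFP+ cells, was nearly flat (2110, 1906 and 1853) and raises these sums.

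**Figure D3:**
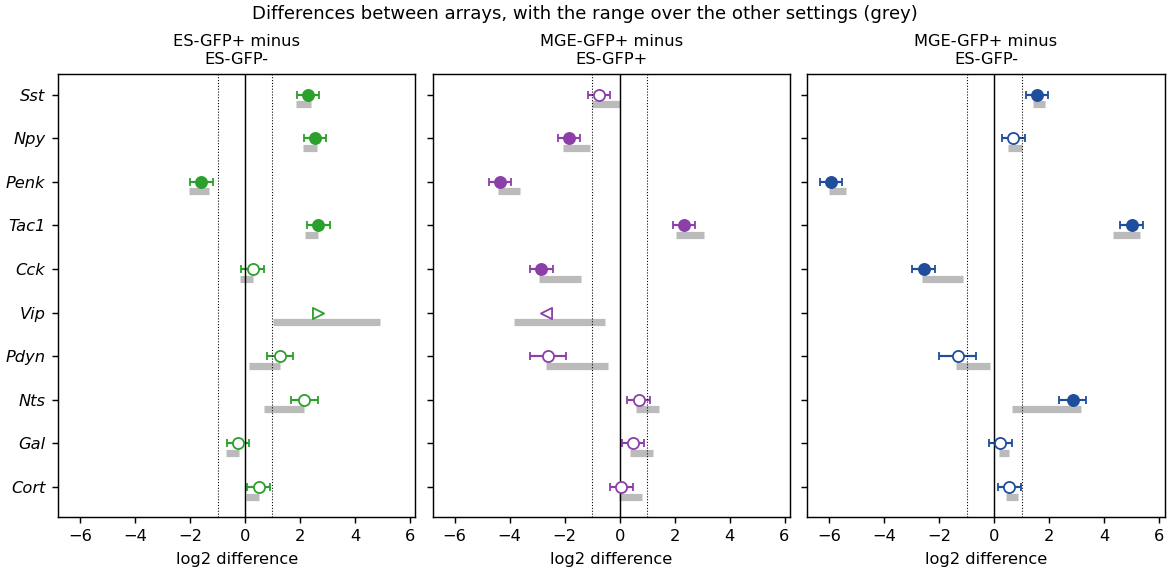
Log2 differences of the 10 genes in the 3 comparisons. Filled points are called, bars are 2 errors as the scanner software assigns them, triangles are bounds, dotted lines mark 2-fold and grey bars span the other settings tried. *Penk* is on the lower side in all panels and *Tac1* on the higher side, and the grey bar of *Sst* reaches 0.01 between MGE-GFP+ and ES-GFP+ cells.

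Against the whole array, the called members lay in the flanks of the distributions, as the 2-fold limit requires of any called gene. The extremes were *Tac1* at 5.004 and *Penk* at -5.94 in MGE-GFP+ relative to ES-GFP- cells, where the median of all 17021 genes with a value was -0.06. The medians over all genes with a value were 0.27 between the ES populations and -0.36 between the GFP+ populations, away from the 0.03 and 0.08 found above the control probes, and the control probes were brightest on the ES-GFP+ array.

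**Figure D4:**
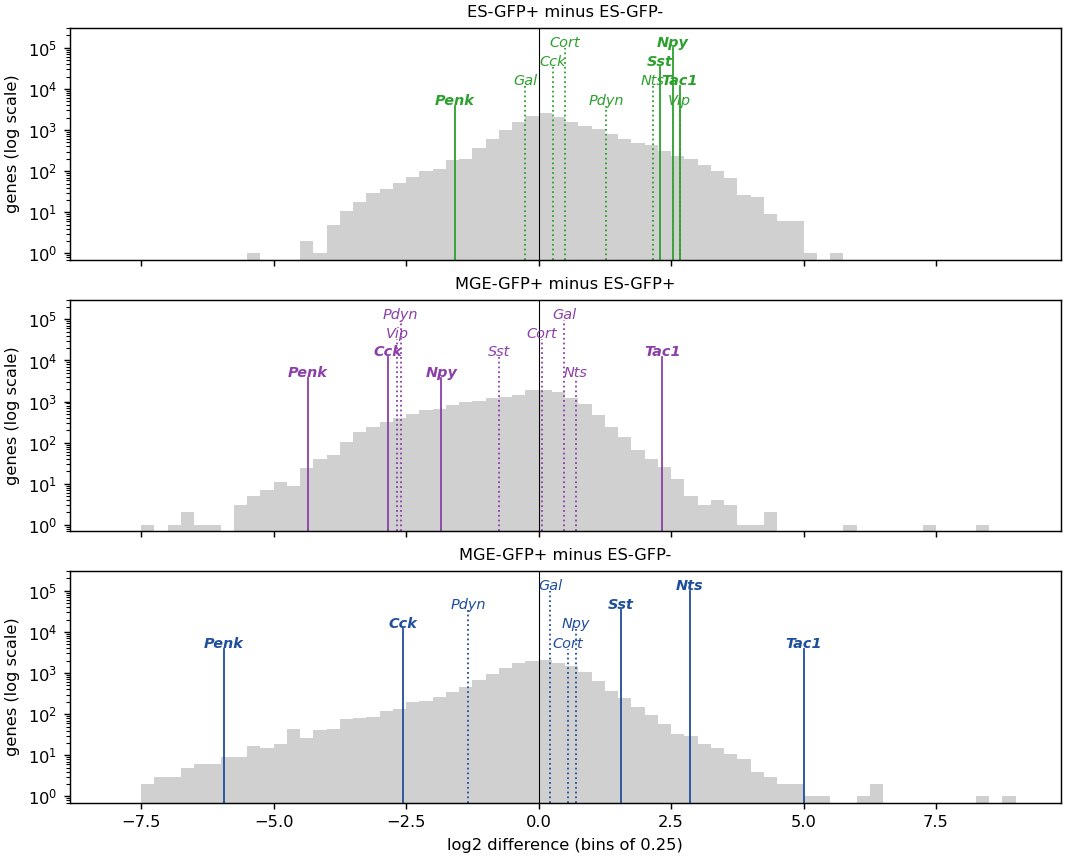
Number of genes (log axis) in bins of 0.25 of the log2 difference in each comparison, with the neuropeptide precursors marked by lines. Names in bold with solid lines are called. *Penk* and *Tac1* lie farthest out of the members, at -5.94 and 5.004 in the lowest panel, while *Gal* and *Cort* lie near the middle in all panels.

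Beyond the 10 members, 46 other neuropeptide precursors had a probe, and few were above the control probes. In ES-GFP+ relative to ES-GFP- cells, 2 of 14 were called higher and 1 lower, in MGE-GFP+ relative to ES-GFP+ cells 1 of 13 was higher and 3 lower, and in MGE-GFP+ relative to ES-GFP- cells 2 of 16 were higher and 5 lower. With the 50th percentile these counts became 0 and 4, 3 and 2, and 3 and 4, and the calls of *Nms* and *Hcrt* between the ES populations ended. The fold changes of this and the next lists are given a second time where the lower value lies within the range of the control probes, with values in that range raised to the 95th percentile (the raised fold). *Pmch*, the precursor of melanin-concentrating hormone, was called lower in all 3 comparisons, with intensities of 1528 in ES-GFP-, 400 in ES-GFP+ and 133 in MGE-GFP+ cells. The last lies within the range of the control probes, which makes the raised fold 2.03 between the GFP+ populations. With the 50th percentile *Pmch* was not called between these populations (-0.46). *Nms*, the precursor of neuromedin S, had its highest intensity in ES-GFP+ cells (1716, against 776 and 312), as did *Hcrt*, the orexin precursor (626, against 286 and 295), and *Agrp*, the agouti-related peptide gene (627, against 360 and 118, the last within the range of the control probes, with a raised fold of 3.18 between the GFP+ populations). *Cartpt* was 5.75-fold lower in MGE-GFP+ than in ES-GFP- cells, but its intensity of 80.4 in MGE-GFP+ cells lay within the control probes' range and the raised fold was 3.04. *Crh*, the precursor of corticotropin-releasing hormone, was at least 15.4-fold higher in MGE-GFP+ than in ES-GFP- cells and 2.53-fold higher than in ES-GFP+ cells, but its intensity in MGE-GFP+ cells was 189, against a control limit of 152 there. Both ES values of *Crh* were within the range of the control probes, and with the raised values it was not called in either comparison.

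Of the 26 receptors of the 10 peptides, at most 10 were above the control probes in a comparison. Between the ES populations 2 were called higher and 2 lower, between the GFP+ populations 1 higher and 2 lower, and between MGE-GFP+ and ES-GFP- cells 1 higher and 4 lower. With values in the range of the control probes raised to the 95th percentile these counts became 2 and 1, 0 and 1, and 1 and 2, and with the 50th percentile 1 and 2, 3 and 2, and 3 and 4. Among the somatostatin receptors, *Sstr1* was higher in MGE-GFP+ cells by 8.89-fold over ES-GFP- and 2.64-fold over ES-GFP+ cells, with intensities of 74.9 in ES-GFP-, 223 in ES-GFP+ and 455 in MGE-GFP+ cells. Both ES values were within the range of the control probes, and the raised folds were 3.20 and 1.57, which ends the call between the GFP+ populations. *Sstr2* had the reverse order, with intensities of 356 in ES-GFP-, 112 in ES-GFP+ and 45.4 in MGE-GFP+ cells, the last 2 within the range of the control probes, and with raised values it was not called in any comparison. *Cckar*, a cholecystokinin receptor, was 3.55-fold lower in ES-GFP+ and 24.5-fold lower in MGE-GFP+ than in ES-GFP- cells. Its intensities of 218 in ES-GFP+ and 24.4 in MGE-GFP+ cells lay within the control probes' range, and the raised folds were 2.05 and 3.93. The galanin receptor *Galr3* peaked in ES-GFP+ cells, 5.40-fold over ES-GFP- and 6.99-fold over MGE-GFP+ cells, but its value of 388 in ES-GFP+ cells only just passed the control limit of 377. Its values of 81.2 in ES-GFP- and 42.8 in MGE-GFP+ cells did not, and the raised folds were 2.10 and 1.97, the latter no longer a call. The neurotensin receptor *Ntsr1* was 4.31-fold lower in MGE-GFP+ than in ES-GFP+ cells, but its intensity of 83.3 in MGE-GFP+ cells lay within the control probes' range and the raised fold was 3.13.

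The enzymes that cut and amidate precursors and the proteins of the vesicles that store them were mostly present on all arrays, and 25 of 28 were above the control probes when the ES populations were compared. In ES-GFP+ relative to ES-GFP- cells 1 was called higher and 3 lower, in MGE-GFP+ relative to ES-GFP+ cells 0 higher and 5 lower, and in MGE-GFP+ relative to ES-GFP- cells 3 higher and 7 lower. With the 50th percentile these counts became 0 and 7, 6 and 2, and 4 and 6, so the split between the GFP+ populations turned. The 1 gene called higher between the ES populations was *Cadps2*, through 1 of its 2 probes (420 in ES-GFP+ cells, against a limit of 377), while its mean over probes, 62.1 in ES-GFP-, 137 in ES-GFP+ and 29.4 in MGE-GFP+ cells, passed no limit. The median log2 difference over those above the control probes was 0.25, -0.23 and -0.19. *Chgb*, which encodes the vesicle protein secretogranin-1, went from an intensity of 22086 in ES-GFP- through 5876 in ES-GFP+ to 1611 in MGE-GFP+ cells, a 9.36-fold difference between the ends. *Slc18a2*, the vesicular monoamine transporter, was 3.81-fold lower in ES-GFP+ and 10.8-fold lower in MGE-GFP+ than in ES-GFP- cells, and the convertase *Pcsk6* 4.97-fold and 8.57-fold lower. The *Pcsk6* values of 60.8 in ES-GFP+ and 27.2 in MGE-GFP+ cells lay within the control probes' range, and with raised values *Pcsk6* was not called in either comparison. *Syt7* was 4.43-fold lower and *Cadps2* at least 3.54-fold lower in MGE-GFP+ than in ES-GFP+ cells, and the raised folds were 3.56 and 2.13. These counts and those of the receptors and other precursors come from lists chosen with earlier results of these arrays known.

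**Figure D5:**
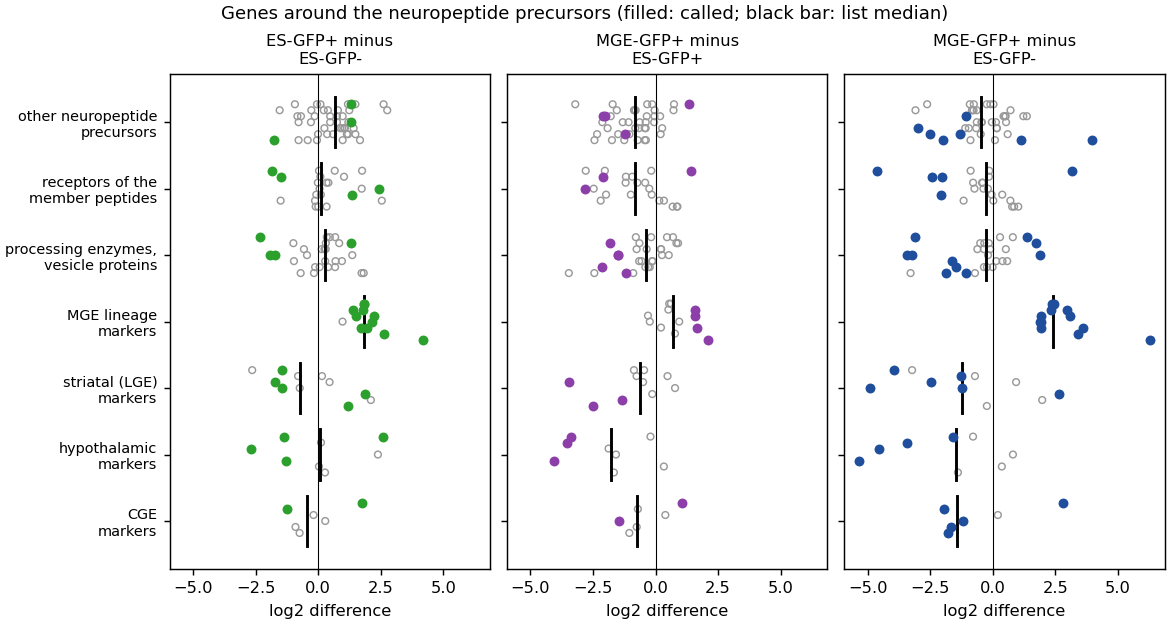
Log2 differences of single genes in 7 lists, with called genes filled and a black bar at the median of each list. The other neuropeptide precursors, receptors and processing and vesicle proteins spread to both sides of 0, while the MGE lineage markers lie above 0 in the left and right panels and the striatal and hypothalamic markers mostly below 0 in the right panel.

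The labels of the 3 populations were checked against marker genes. *Lhx6* was read by 3 probes. Their mean intensity, taken on the log2 scale, was 4061 in ES-GFP-, 22250 in ES-GFP+ and 29403 in MGE-GFP+ cells. The brightest of these probes was nearly flat (122188, 111947 and 97733 in the same order) and raises that mean. The other probes read 399, 5818 and 10244, and 1373, 16913 and 25391. Both exceeded the control limit of 208 in ES-GFP- cells, so the GFP- population was not free of *Lhx6* signal. Of 12 MGE lineage markers, 11 were called higher in ES-GFP+ and 12 in MGE-GFP+ than in ES-GFP- cells, and 0 lower. In MGE-GFP+ relative to ES-GFP+ cells 4 were higher (*Nkx2-1*, *Lhx8*, *Sox6* and *Dlx2*) and 0 lower. Of 10 progenitor markers, 9 were lower in ES-GFP+ and 9 in MGE-GFP+ than in ES-GFP- cells. Their summed levels were 65.8 in ES-GFP-, 13.1 in ES-GFP+ and 16.9 in MGE-GFP+ cells. The sums of 10 neuronal markers were 312, 377 and 450 in the same order. *Snap25*, whose intensity before scaling was nearly flat (157421, 155223 and 147475), raises these sums. Between the ES populations 2 neuronal markers were called higher (*Dcx* and *Elavl3*) and 0 lower. From ES-GFP+ to MGE-GFP+ cells the counts were 2 and 1 (*Rbfox3*), and from ES-GFP- to MGE-GFP+ cells 2 and 1 (*Nefl*). With the 50th percentile these calls of *Dcx*, *Elavl3* and *Rbfox3* ended, while *Nefl* stayed lower. Of 6 erythroid markers, 3 were called higher in MGE-GFP+ cells than in each ES population, with summed levels of 0.81, 1.23 and 20.7. Of 6 endothelial markers, *Kdr* was called higher in MGE-GFP+ cells than in each ES population. Of 6 microglial markers, *Aif1* was called higher in MGE-GFP+ than in ES-GFP- cells. With dim values raised to the control limit, the calls of *Kdr*, *Aif1* and the erythroid *Hba-x* ended. The endothelial sums lay between 0.54 and 0.998 and the microglial sums between 2.45 and 3.53. The latter are raised by 1 bright *Itgam* probe that was nearly flat (184306, 191280 and 168414). The part of these cell types in the peptide values was not tested.

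Genes whose pattern over the 3 arrays was nearest to each of the 8 members above the control probes were found by the distance between log2 levels centred on each gene's own mean, among 11581 genes. *Sst* was nearest to *Nrp1* (0.13), *Cyp19a1* (0.13) and *Frzb* (0.14), and *Npy* to *Prl3a1* (0.16). *Penk* had 1 gene within 1 SD of a repeat-spot difference, *Sparc*, at a distance of 0.06, and *Tac1* had 0, the nearest being *Nr2e1* at 0.44. *Cck* had 20 such genes, led by *Ccdc136*, *Adamts2* and *Grin2d*, and *Nts* had 3, led by *Insyn2b*. By contrast 852 genes lay that near to *Gal* and 670 to *Cort*, so flat patterns like theirs were common. Few genes were near the steeper patterns, with 1 for *Npy* and 5 for *Sst* as well, and the distance counts the size of the differences. The likeness rests on 3 arrays only.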

How the data were processed

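The files the authors deposited are Agilent Feature Extraction output (version 10.7.3.1 and build mm9 in the headers) of 3 one-color arrays on 1 slide from 1 scan, with 62976 spots each. Per the file headers, each deposited intensity is a linear, background-subtracted spot signal, not scaled between arrays. The authors also deposited log2 values, which a comparison with the scanner values showed to be close to quantile normalized log2 median intensities without background subtraction (median absolute difference 0.03 to 0.04), and these were used as an alternative. The paper and the labels name different amplification kits and array formats.

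Here, spots with an outlier flag (98 to 137 per array) were left out, repeat spots were averaged, and log2 intensity was centred on the array's 75th percentile over 55681 mouse probes, of which 26576 were named through RefSeq accessions. A probe that was not well above background on at least a share of 0.5 of its spots was raised to the array's lowest detected value, which turns its fold into a bound. Between 77.1% and 90.6% of probes were well above background, and 0 spots were saturated. Errors are the SD over repeat spots or the error that the software assigns to each spot, and neither holds biological variation.

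The members and lists were chosen with earlier results of these data known. Named genes are the 10 members, the called genes with the 3 largest differences of each list and comparison, and the 3 nearest genes in pattern, of which some are given by count. *Spx*, on the list of other precursors, had no probe. Alternatives were another percentile, quantile normalization, other background corrections, floors, probe choice and fold limit. The scripts were tested on simulated data. Python 3.11.15, numpy 2.4.6, pandas 2.3.3, R 4.3.3 and limma 3.58.1 were used.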

Additional observations from a re-analysis of the deposited data

How the results depend on the processing

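The number of members called stayed within 1.5 times of 4, 4 and 5 in the 3 comparisons under each of the 10 other settings, with 3 to 4 between the ES populations, 3 to 6 between the GFP+ populations and 4 to 6 between MGE-GFP+ and ES-GFP- cells. At 4-fold, *Penk* was no longer called in the first comparison, *Npy* in the second and *Sst* in the third. Over all genes, scaled to the 50th percentile, 332 genes were higher and 2214 lower between the ES populations, in place of 810 and 1033. Between the GFP+ populations 4416 genes were higher and 467 lower, in place of 923 and 1163. At 4-fold the counts were 127 and 298, 86 and 354, and 239 and 871. Of the members' log2 differences under these settings, 162 moved by less than 1 SD of a repeat-spot difference and 92 by more, and 29 of the latter came with the 50th percentile. Of the 162, 29 came from the brightest probe of each gene, which cannot change genes with 1 probe. Another 29 came from centring on the median gene, which shifts all members alike by less than that SD. A further 27 came from leaving out the floor, which reaches only *Vip*. These values do not test stability. Normexp on median intensities and centring on the median gene were chosen after seeing the data, because the planned normexp on mean intensities could not be run on the columns at hand. With 1 slide, no block could be fitted. No paired analysis was possible because each group has 1 sample. Dim signals, brighter on the ES-GFP+ array, limit what can be said of *Vip*, *Pdyn* and *Nts*.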
